A study of Mus musculus with 6 samples.

Results

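The 10 genes described here code for proteins that let calcium into the cytosol and pass its signal to the nucleus. They were chosen by symbol. Itpr1, Itpr2, Stim1 and Orai1 stand for calcium release and entry, and Ppp3ca and Ppp3cb for the catalytic subunits α and β of calcineurin. Rcan1 stands for an inhibitor of calcineurin, and Nfatc1, Nfatc2 and Nfatc3 for transcription factors that calcineurin acts on. All 10 were among the 46316 gene symbols of the deposited table and among the 13864 genes with enough counts to be tested. Naive B cells of WT mice were isolated from the spleen with a kit and grown with 5 ng/mL IL-4 and 500 ng/mL of an antibody against CD40, which stands in for help from T cells. In the IL-4 + bryostatin 1 group (3 samples), 0.8 nM bryostatin 1, an activator of PKC, was added, and in the IL-4 group (3 samples) it was left out. RNA was taken after 2 days and sequenced. None of the 6 cultures was given an antibody against the B cell receptor, and no sample without IL-4 or anti-CD40 was analysed here, so each comparison shows what bryostatin 1 added to these stimuli.

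In a B cell, engagement of the antigen receptor makes phospholipase C cleave a membrane lipid into IP3, which opens IP3 receptors (the Itpr genes) on the endoplasmic reticulum, and diacylglycerol, which activates PKC. STIM1 in the reticulum membrane senses the emptied store and opens ORAI1, the pore of the calcium release-activated channel, in the plasma membrane. Calcium bound to calmodulin then switches on the phosphatase calcineurin, which strips phosphates from NFAT proteins so that they enter the nucleus. Bryostatin 1 acts on the diacylglycerol side of this branch.

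With bryostatin 1, the RNA of 6 members was lower (Ppp3ca, Nfatc1, Stim1, Itpr1, Ppp3cb and Nfatc3), that of Orai1 was higher, and Rcan1, Nfatc2 and Itpr2 did not pass the test. The sizes were small, from 1.47-fold lower for Ppp3ca to 1.37-fold higher for Orai1, and no member moved by more than 1 on the log2 scale. A gene was called at an adjusted p under 0.05 in edgeR's quasi-likelihood test over all genes. Most genes of these cells passed that test, 58.1% of all genes tested, against 7 of the 10 members, so that being called was not particular to the members. By direction, 30.1% of all genes were called higher, against 1 of 10 members, and 28.0% were called lower, against 6 of 10 members. The median log2 fold change was -0.11 over the members and 0.0024 over all genes tested. Levels are given as CPM, a count scaled by the depth of its library, in the order of the replicates. The study's methods speak of independent experiments in general, but not of how the sequenced replicates were obtained. The p-values reflect only how far the 3 samples of each group lay apart, which could be technical. For each gene, edgeR draws that spread towards the spread of the other genes tested.

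**Figure D1:**
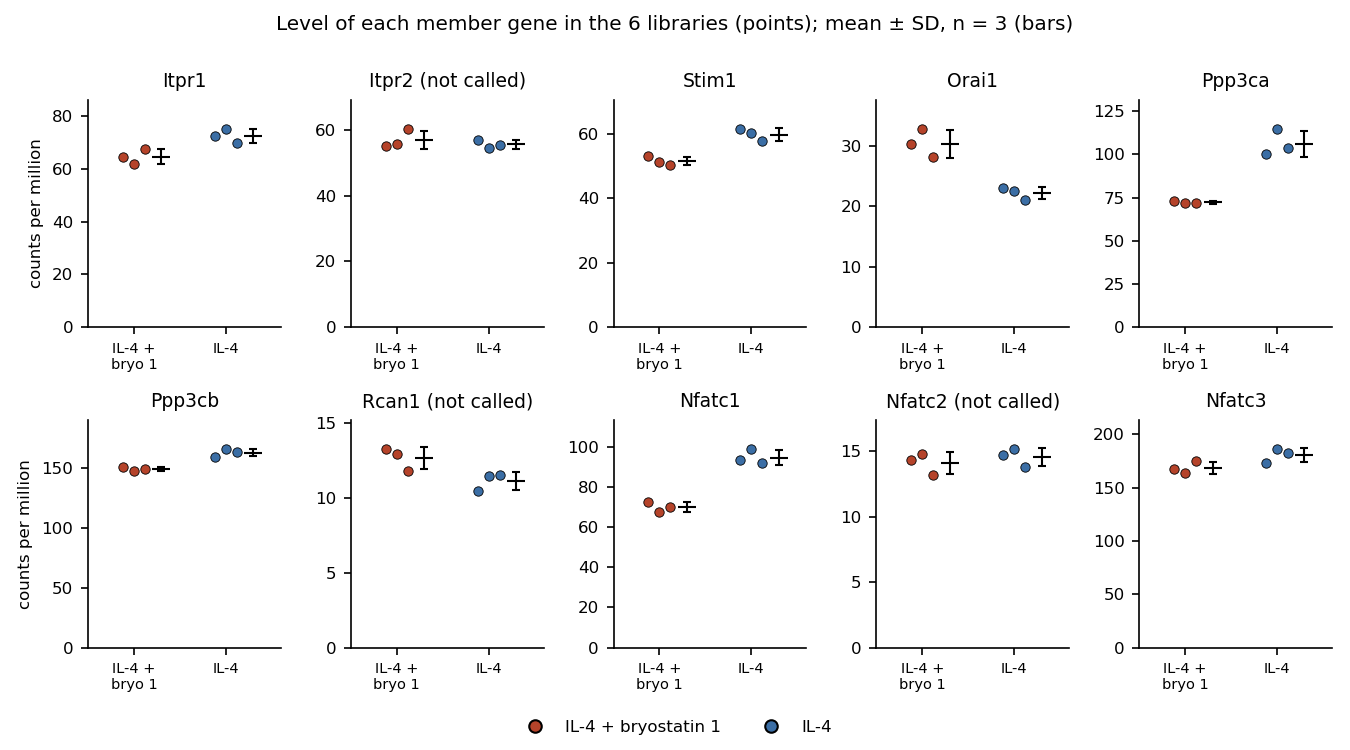
Level of each of the 10 member genes in CPM (vertical axis, starting at 0) in the 6 libraries. Points are libraries, red for IL-4 + bryostatin 1 and blue for IL-4, and bars are the mean ± SD, n = 3. The groups do not overlap for 7 members, against 63.5% of all genes tested. Of the 7, Orai1 and Rcan1 (not called) lie higher and the other 5 lower in the bryostatin 1 libraries.

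The libraries held 19959958 to 24896411 counts with bryostatin 1 and 20564303 to 22219376 counts without. The sum of 6 B cell markers (Cd79a, Cd79b, Ms4a1, Pax5, Ebf1 and Cd22) lay between 3817 and 4065 CPM with bryostatin 1 and between 4818 and 5044 CPM with IL-4 alone, far above every other marker list in all 6 libraries. The sum of 10 T cell markers was 74.5 to 84.9 CPM with bryostatin 1 and 36.2 to 40.3 CPM without, nearly all of it from Lck, and without Lck it was 2.96 to 3.67 CPM and 0.823 to 1.51 CPM. The defining genes Cd3d, Cd3e and Cd3g together had 7 to 13 counts in a bryostatin 1 library and 1 to 6 in an IL-4 library. NK cell markers summed to at most 1.66 and 0.503 CPM, and red blood cell or platelet markers to at most 1.10 and 0.584 CPM, with 2 of 6 genes at 0 in every library. Markers of monocytes, macrophages or granulocytes summed to 22.1 to 25.3 CPM with bryostatin 1 and 5.07 to 8.19 CPM without, most of it from Adgre1. Plasma cell markers summed to 41.8 to 50.4 CPM with bryostatin 1 and 17.4 to 18.9 CPM without. In bulk RNA a smaller number of cells of one kind cannot be told apart from less RNA per cell, and the part of these markers in the results below was not tested.

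Orai1, the only member called higher, and Rcan1, whose inner start is known as a calcineurin and NFAT feedback promoter, are shown by the 250 bases before their starts. The sequences are from RefSeq (GRCm38.p6), written 5′ to 3′ on the strand of the gene, with 2 short words in capitals: GGAAA, the core that NFAT proteins bind (TTTCC on the other strand), and TGACTCA, the word of AP-1 factors that PKC activators are known to act through (TGAGTCA on the other strand). No match of one word overlaps a match of the other.
Orai1, chr5:123014824-123015073, + strand: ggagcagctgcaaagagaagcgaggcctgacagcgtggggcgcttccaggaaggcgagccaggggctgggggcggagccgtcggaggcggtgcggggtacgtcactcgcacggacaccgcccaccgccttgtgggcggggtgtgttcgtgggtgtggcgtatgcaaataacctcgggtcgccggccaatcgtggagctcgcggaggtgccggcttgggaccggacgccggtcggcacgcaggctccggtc
Rcan1 outer start, chr16:92466170-92466419, - strand: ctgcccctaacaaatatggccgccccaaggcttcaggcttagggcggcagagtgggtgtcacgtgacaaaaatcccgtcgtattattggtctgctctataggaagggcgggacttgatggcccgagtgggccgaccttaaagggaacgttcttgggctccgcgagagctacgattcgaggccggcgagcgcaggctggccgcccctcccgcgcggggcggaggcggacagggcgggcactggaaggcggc
Rcan1 inner start, chr16:92400079-92400328, - strand: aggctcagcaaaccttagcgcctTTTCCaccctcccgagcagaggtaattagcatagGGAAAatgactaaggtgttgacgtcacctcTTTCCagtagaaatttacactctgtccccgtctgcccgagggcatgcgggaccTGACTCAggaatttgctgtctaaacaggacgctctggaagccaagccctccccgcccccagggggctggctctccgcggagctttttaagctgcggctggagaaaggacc
The Orai1 window held neither word, the outer Rcan1 window held neither, and the inner Rcan1 window held 3 GGAAA words, at 163, 193 and 227 bases before the start, and 1 TGACTCA word. Of 32851 such windows of the mouse genome 55.6% held GGAAA on either strand, while 4.46% held TGACTCA. Among the members, 7 had a window in the table, with 10 windows in all, of which 5 held GGAAA and 1, the inner Rcan1 window, held TGACTCA. Itpr1, Ppp3ca and Nfatc1 had none in it. The Ppp3cb window and 1 Nfatc2 window also held 3 GGAAA words each, so that number was not particular to Rcan1. Over all windows the median was 1 GGAAA match. A match is only a run of letters, not a bound site.

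Release of calcium from the endoplasmic reticulum was represented by 2 IP3 receptor genes, of which 1 was lower. Itpr1, which codes for the type 1 IP3 receptor, stood at 64.2, 61.8 and 67.4 CPM with bryostatin 1, against 72.5, 74.9 and 69.6 CPM with IL-4 alone. The highest bryostatin 1 library was just below the lowest IL-4 library. The log2 fold change was -0.17 (SE 0.04, 95% interval -0.26 to -0.07, adjusted p = 0.0040). Itpr2, the type 2 receptor, stood at 54.9, 55.6 and 60.1 CPM with bryostatin 1, against 57.0, 54.3 and 55.2 CPM with IL-4 alone. These groups overlapped, and the 95% interval of the log2 fold change ran from -0.06 to 0.13 around 0.03 (adjusted p = 0.55).

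For calcium entry, the RNA of the reticulum sensor and that of the plasma membrane pore moved in opposite directions. Stim1, the store sensor, stood at 53.0, 51.4 and 50.3 CPM with bryostatin 1, against 61.4, 60.2 and 57.7 CPM with IL-4 alone. Every bryostatin 1 library was below every IL-4 library, and the log2 fold change was -0.21 (SE 0.04, adjusted p = 0.00047). Orai1, the channel pore, stood at 30.3, 32.8 and 28.1 CPM with bryostatin 1, against 23.1, 22.5 and 21.1 CPM with IL-4 alone. Here every bryostatin 1 library was above every IL-4 library, with a log2 fold change of 0.45 (SE 0.07, 95% interval 0.31 to 0.59, adjusted p = 1.7e-05). Within a library the ratio of Stim1 to Orai1 counts was 1.75, 1.57 and 1.79 with bryostatin 1, against 2.66, 2.67 and 2.74 with IL-4 alone, a drop by 0.66 on the log2 scale with no overlap.

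Both members that code for catalytic subunits of calcineurin were lower, and Ppp3ca by more. Ppp3cc, the remaining catalytic subunit gene and not a member, was called higher, as given further below. Ppp3ca, which codes for calcineurin Aα, stood at 73.1, 71.8 and 71.8 CPM with bryostatin 1, against 100.2, 114.6 and 103.7 CPM with IL-4 alone. The bryostatin 1 libraries lay within 2 CPM of each other and far below the IL-4 libraries. The log2 fold change, -0.56 (SE 0.05, 95% interval -0.65 to -0.46, adjusted p = 1.2e-08), was the largest in size among the members, and 77.1% of all genes tested had a smaller one. Ppp3cb, which codes for calcineurin Aβ, stood at 150.2, 147.1 and 148.5 CPM with bryostatin 1, against 159.3, 165.2 and 162.8 CPM with IL-4 alone. The groups did not overlap, although the log2 fold change was only -0.13 (SE 0.03, adjusted p = 0.0041). The ratio of Ppp3ca to Ppp3cb counts within a library was 0.486, 0.488 and 0.483 with bryostatin 1, against 0.629, 0.693 and 0.636 with IL-4 alone, lower by 0.42 on the log2 scale.

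Rcan1, the feedback inhibitor of calcineurin, came closest to the threshold among the 3 members that were not called. It stood at 13.3, 13.0 and 11.8 CPM with bryostatin 1, against 10.5, 11.4 and 11.6 CPM with IL-4 alone. The lowest bryostatin 1 library was just above the highest IL-4 library, and the log2 fold change was 0.19 (SE 0.08, 95% interval 0.01 to 0.36, adjusted p = 0.059). With total counts as the scale the adjusted p was 0.035, and without the third bryostatin 1 library it was 0.039. The 2 Rcan1 rows, which begin at the outer and the inner start, differ by under 2% in their mean counts, so the starts printed above cannot be told apart in these counts.

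Of the NFAT genes, Nfatc1 changed most. Nfatc1, known for an inducible short isoform that NFAT itself switches on, stood at 72.4, 67.5 and 70.0 CPM with bryostatin 1, against 93.4, 98.6 and 91.6 CPM with IL-4 alone. The groups were well separated, with a log2 fold change of -0.43 (SE 0.04, 95% interval -0.52 to -0.34, adjusted p = 9.1e-08). Nfatc2, whose product is known as a preformed factor of resting lymphocytes, stood at 14.4, 14.8 and 13.2 CPM with bryostatin 1, against 14.7, 15.1 and 13.8 CPM with IL-4 alone. The groups overlapped throughout, and the log2 fold change was -0.04 (95% interval -0.20 to 0.12, adjusted p = 0.65). Nfatc3, the remaining calcium-regulated member, stood at 167.0, 164.0 and 175.0 CPM with bryostatin 1, against 173.2, 185.8 and 182.1 CPM with IL-4 alone. These groups overlapped in 1 library of each, and the log2 fold change of -0.10 (SE 0.04, adjusted p = 0.040) was called by a narrow margin. The call of Nfatc3 was lost with total counts as the scale (adjusted p = 0.10), with no filter on low counts (0.059), with counts summed over rows (0.098), and when the first (0.091) or second (0.14) bryostatin 1 library or the second (0.12) or the third (0.059) IL-4 library was left out.

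**Figure D2:**
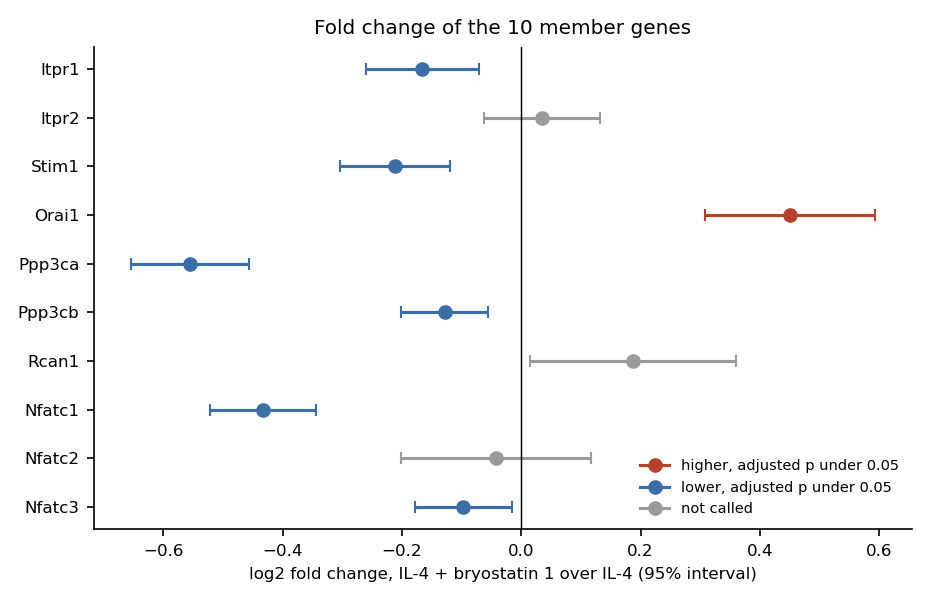
Log2 fold change of each member gene, IL-4 + bryostatin 1 over IL-4 (horizontal axis), with its 95% interval. The interval was computed from the F statistic of edgeR's test. Red is higher and blue is lower at an adjusted p under 0.05, and grey is not called. Ppp3ca at -0.56 and Orai1 at 0.45 mark the ends of the range, and the intervals of Nfatc2 and Itpr2 hold 0.

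Over the members, 7 of 10 had groups that did not overlap, against 63.5% of all genes tested, and these were the called members with Rcan1 in place of Nfatc3. The 6 ratios of related members, taken within each library so that scaling cancels, were compared by an exact two-sided permutation test over the libraries, which with 3 against 3 cannot go below p = 0.10. The ratios Nfatc1 to Nfatc2, Nfatc1 to Nfatc3, Ppp3ca to Ppp3cb, Itpr1 to Itpr2 and Stim1 to Orai1 did not overlap between the groups and each reached that smallest p (0.12 after Benjamini-Hochberg adjustment over the 6 ratios). All 5 were lower with bryostatin 1, but that direction is set by which gene was written first. The ratios restate the fold changes of the members given above, and Nfatc1 enters more than 1 of them. No share over other pairs of genes was computed, so no result about the members is read from the number that did not overlap. The ratio of Nfatc1 to Nfatc2 counts was 5.04, 4.55 and 5.31 with bryostatin 1, against 6.34, 6.51 and 6.64 with IL-4 alone, a difference of -0.39 on the log2 scale. The ratio of Nfatc1 to Nfatc3 counts differed by -0.34 and that of Itpr1 to Itpr2 by -0.20. The ratio of Nfatc2 to Nfatc3 counts overlapped between the groups, with a difference of 0.05 (exact p = 0.60, 0.60 after adjustment).

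**Figure D3:**
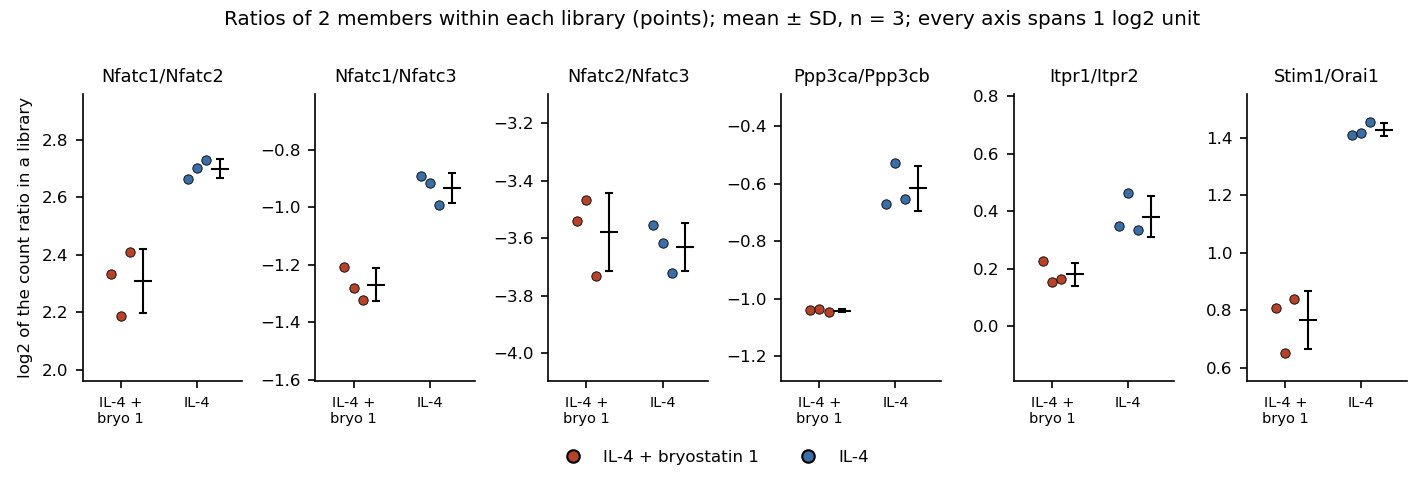
Log2 of the ratio of the counts of 2 member genes within each library (vertical axis, spanning 1 log2 unit in every panel). Points are libraries, red for IL-4 + bryostatin 1 and blue for IL-4, and bars are the mean ± SD, n = 3. The groups are apart in every panel but that of Nfatc2 to Nfatc3. The group means lie furthest apart, by 0.66, in that of Stim1 to Orai1.

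Longer transcripts collect more reads, so levels were set between genes only per kilobase, with the lengths of GENCODE M21 transcripts that are tied to a gene's RefSeq rows. These lengths need not be those of the authors' rows, and the values are approximate. Nfatc3 had the highest level of the 3 NFAT genes, 28.2 CPM per kilobase with bryostatin 1 and 30.1 with IL-4 alone. Nfatc1 followed, with 15.2 and 20.5 CPM per kilobase at its longest transcript. Nfatc2 was far lower, at 2.07 and 2.13 CPM per kilobase, and these 3 levels stayed in that order at every length tried. Orai1 was at 16.2 CPM per kilobase with bryostatin 1 and 11.9 with IL-4 alone, and Stim1 was at 12.6 and 14.6, so that Orai1 was above Stim1 in the first condition and below it in the second. This crossing rests on 1 transcript length for each gene. Rcan1 was at 5.46 and 4.80 CPM per kilobase. Ppp3cb was at 38.8 and 42.4, Itpr1 at 6.53 and 7.33 and Itpr2 at 4.87 and 4.75, each at its longest transcript. Ppp3ca had transcripts of 2194 and 4758 bases, which leaves its level between 15.2 and 32.9 CPM per kilobase with bryostatin 1 and between 22.3 and 48.4 with IL-4 alone. The lengths of Itpr2 span 8331 to 11679 bases, so the order of Itpr1 and Itpr2 with bryostatin 1 was not settled.

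The table lists several RefSeq transcripts for each member, from 2 rows for Rcan1 to 20 for Itpr1, and for every member but Nfatc2 most rows held at least 95% of the counts of the highest one. For Nfatc2 this was so for 8 of 19 rows. For each member the row with the highest mean was used, and 22 rows held under 95% of it. In a comparison of the share of these rows by the exact permutation test, none passed after adjustment over the 22 rows (adjusted p = 0.73 or higher), and the design cannot go below p = 0.10 for one row. Among them 3 did not overlap between the groups. The Itpr2 row XM_006507026.5 held 60.5%, 60.3% and 60.5% of the used row with bryostatin 1, against 55.0%, 56.4% and 53.9% with IL-4 alone. The Itpr1 row XM_036165883.1 held 36.3 ± 2.41% and 32.2 ± 0.407% (SD, n = 3 each), and the Nfatc3 row XM_006530754.5 held 51.6 ± 1.46% and 48.8 ± 1.51% (SD, n = 3 each). The 6 Nfatc2 rows that differ most from the used one held means of 9.06% to 17.4% with bryostatin 1 and 8.99% to 18.1% with IL-4 alone, and all 6 overlapped between the groups.

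Around the members, 99 other genes of the pathway were listed in 8 groups by role, of which 76 had enough counts. Of these 29 were called higher (38.2%, against 30.1% of all genes tested) and 26 lower (34.2%, against 28.0%), with a median log2 fold change of 0.0046. The counts of the single lists, of 5 to 20 tested genes each, stand against the same shares. Past a log2 fold change of 1 in either direction were 7 of the 76 and 0 of the 10 members, against 10.6% of all genes tested, and no contrast is read from these counts. The lists were drawn up with earlier results of these data known.

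Among 10 partners of store-operated entry, 4 of 8 tested were higher and 3 lower. Saraf, which codes for a protein that turns STIM1-driven entry off, stood at 52.5, 57.2 and 59.5 CPM with bryostatin 1, against 13.8, 15.3 and 13.7 CPM with IL-4 alone. The groups were far apart, with a log2 fold change of 1.98 (SE 0.07, adjusted p = 2.8e-14), and Saraf thus rose where Stim1 fell. Stimate, a promoter of STIM1 conformation change, had a log2 fold change of 0.72 (SE 0.06) and Stim2, the second sensor, one of 0.30 (SE 0.05), both called. Orai3 at -0.17 and Cracr2a, a regulator of the ORAI1 and STIM1 complex, at -0.39 were called lower. Orai2, the remaining pore gene, had a log2 fold change of 0.14 (adjusted p = 0.050) and just missed the threshold.

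Of 16 genes for IP3 production, receptors and removal, 4 of 13 tested were higher and 6 lower. Irag2 (Lrmp in the table), a membrane protein of the reticulum that binds IP3 receptors, stood at 460.0, 505.4 and 489.1 CPM with bryostatin 1, against 220.5, 195.3 and 200.9 CPM with IL-4 alone, a log2 fold change of 1.24 (SE 0.05, adjusted p = 1.4e-13). Ahcyl1, also called IRBIT, which competes with IP3 for the receptor, was higher by 0.78 and Erp44, a lumenal inhibitor of type 1 IP3 receptor, by 0.76 on the log2 scale. Blnk, the adaptor that brings phospholipase C γ2 to the B cell receptor, stood at 126.8, 119.0 and 123.8 CPM with bryostatin 1, against 239.1, 251.6 and 247.2 CPM with IL-4 alone, a log2 fold change of -0.996 (SE 0.04, adjusted p = 1.6e-13). Itpkb, the kinase that converts IP3 to IP4, was lower by 0.84 on the log2 scale. The remaining called genes of the list, outside the naming rule and named after their values were seen, went in both directions. Plcg1, which codes for phospholipase C γ1, was called higher at 0.58. Btk at -0.61, a kinase that activates phospholipase C γ2, and Inpp5d at -0.44, a phosphoinositide phosphatase, were called lower. So were the third receptor gene Itpr3 at -0.31 and Itprid2 at -0.17, a partner of IP3 receptors. Plcg2, which codes for phospholipase C γ2 and was also named after its value was seen, was not called. Its log2 fold change was 0.08 (adjusted p = 0.054).

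Of 22 calcium pumps and other channels, 6 of 20 tested were higher and 8 lower. Atp2a3, which codes for SERCA3, a pump that refills the reticulum, stood at 115.0, 103.3 and 99.7 CPM with bryostatin 1, against 414.3, 416.2 and 384.3 CPM with IL-4 alone. The log2 fold change was -1.93 (SE 0.05, adjusted p = 7.9e-16), the lowest value of the whole pathway. Its relative Atp2a2 (SERCA2), named here for the comparison after its value was seen, had a log2 fold change of 0.06 (95% interval -0.02 to 0.13, adjusted p = 0.18). The plasma membrane pump gene Atp2b4 was higher by 1.84 on the log2 scale (SE 0.27), at low levels of 1.58 ± 0.243 CPM with bryostatin 1 and 0.441 ± 0.0557 CPM with IL-4 alone (SD, n = 3 each). The reticulum channel gene Ryr1 at 0.70 and the ATP-gated channel gene P2rx7 at 0.92 were called higher, and P2rx4, another ATP-gated channel gene, was called lower at -0.70. Relatives of these, named after their values were seen, went the other way, since Ryr2 at -0.42 and the plasma membrane pump gene Atp2b1 at -0.17 were called lower.

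The other calcineurin and NFAT genes moved little: of 8 genes, 2 of the 6 tested were higher, 2 were lower and the largest log2 fold change in size was 0.20. Ppp3cc, which codes for the third catalytic subunit, calcineurin Aγ, stood at 164.3, 168.2 and 168.3 CPM with bryostatin 1, against 146.9, 148.9 and 139.7 CPM with IL-4 alone. This was a log2 fold change of 0.20 (SE 0.04, adjusted p = 0.00013), opposite in direction to Ppp3ca and Ppp3cb. Nfat5, the calcium-independent relative, was higher at 0.19, and the calmodulin genes Calm3 and Calm2 were lower at -0.12 and -0.10. Of 8 inhibitors and scaffolds of calcineurin, 1 of 6 tested was higher and 2 lower. The higher one was Fkbp1a at 0.44, the immunophilin that carries the drug FK506 to calcineurin, and the lower ones were Cabin1 at -0.29, a calcineurin-binding inhibitor, and Chp1 at -0.10, a calcineurin B homologue.

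Of 11 kinases that rephosphorylate NFAT and other NFAT partners, all tested, 6 were higher and 3 lower. Csnk1e, which codes for casein kinase 1ε, stood at 32.9, 36.0 and 35.8 CPM with bryostatin 1, against 16.1, 14.1 and 13.2 CPM with IL-4 alone, a log2 fold change of 1.26 (SE 0.07, adjusted p = 7.3e-11). Homer3, a competitor of calcineurin for NFAT, was higher by 0.44. Outside the naming rule, Dyrk2 at 0.31, Csnk1d at 0.17, Csnk1a1 at 0.14 and Gsk3a at 0.11 were also called higher. They were named after their values were seen. Lrrk2 at -0.66, part of a complex that holds NFAT in the cytosol, Dyrk1b at -0.59, a DYRK family kinase, and Gsk3b at -0.36, a kinase that drives NFAT out of the nucleus, were called lower. Of 9 calcium and calmodulin-dependent kinases, 3 of 7 tested were higher, namely Camk2a at 0.94, Camk2b at 0.79 and Camk2d at 0.15, and 1 was lower, Camk1d at -0.45.

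Of 15 genes known as NFAT targets in lymphocytes, 10 had too few counts to test, among them the cytokine genes Il2, Il3, Il4, Il5, Il10, Ifng and Csf2 that NFAT is best known for in T cells. The 5 tested did not move together, with 3 higher and 1 lower. Il2ra, the IL-2 receptor α chain, was higher by 5.32 on the log2 scale (SE 0.08), and Egr2, a transcription factor gene, by 0.99 (SE 0.15) at 170.0, 155.3 and 153.9 CPM with bryostatin 1, against 114.9, 68.3 and 58.4 CPM with IL-4 alone. The first IL-4 library was well above the other 2 IL-4 libraries for Egr2. Tnf was higher by 0.39 and Cd5, a B cell coreceptor that restrains signalling, was lower at -1.01 (SE 0.15), at 2.69 ± 0.333 CPM with bryostatin 1 and 5.40 ± 0.698 CPM with IL-4 alone (SD, n = 3 each). Egr3, the remaining gene tested, had a log2 fold change of -0.27 (adjusted p = 0.18). Measures of NFAT protein, its place in the cell or calcium itself were not analysed here.

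**Figure D4:**
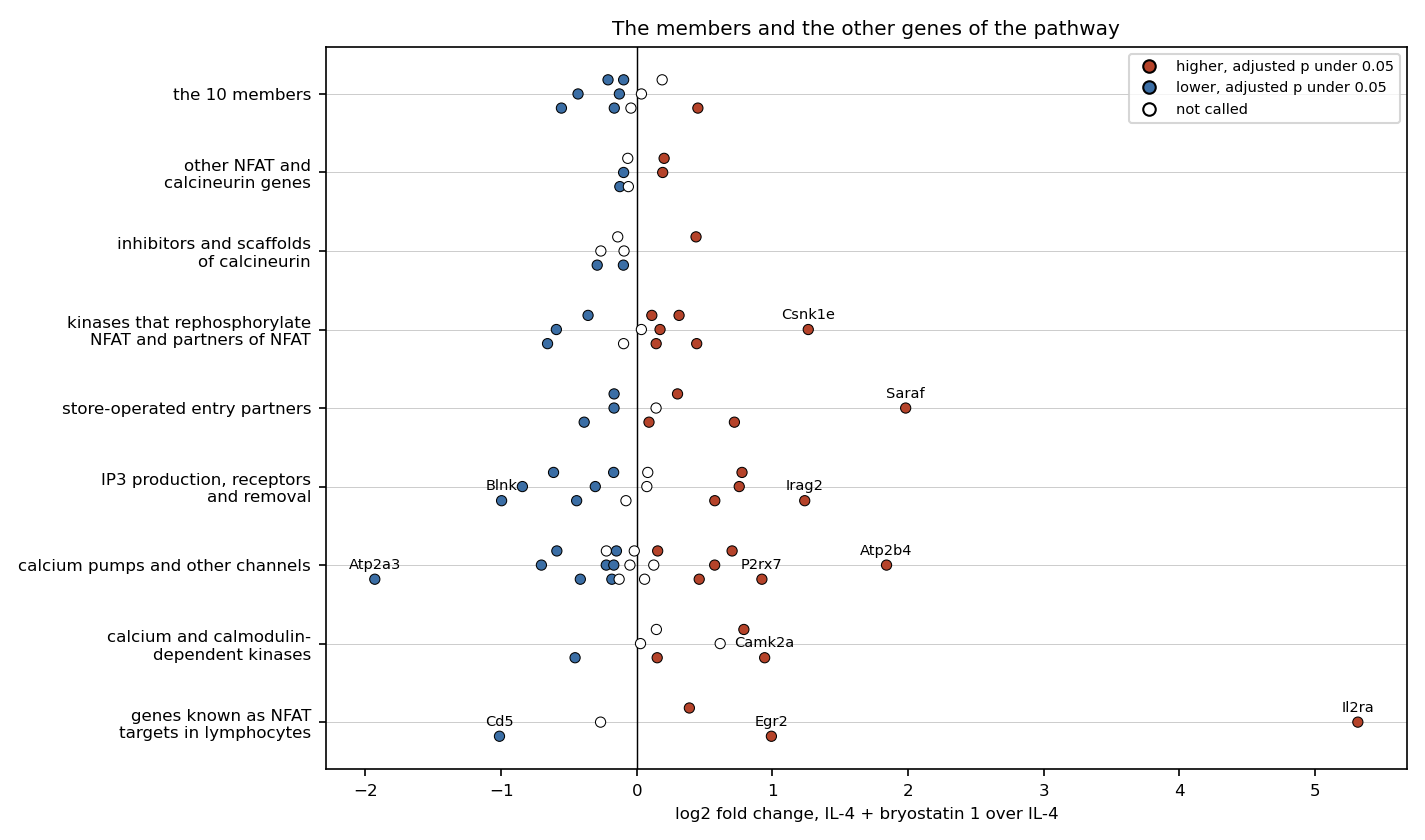
Log2 fold change, IL-4 + bryostatin 1 over IL-4 (horizontal axis), of the 10 members in the top row and of 76 other genes of the pathway in 8 lists below. Each point is a gene, red for higher and blue for lower at an adjusted p under 0.05 and white for not called, and genes past 0.9 in either direction are named. The members lie between -0.56 and 0.45, while Saraf at 1.98, Atp2a3 at -1.93 and Il2ra at 5.32 lie far outside that range.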

How the data were processed

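RNA of 3 IL-4 + bryostatin 1 and 3 IL-4 samples was sequenced by the authors, with cutadapt for trimming, HISAT2 for mapping, SAMtools for sorting and featureCounts for counting, tools that the submitters' processing notes name, with their roles from the study's methods. The deposited table holds unscaled counts per RefSeq transcript for 139023 rows. It also holds the authors' fold changes, p-values and q-values, which were not used. Its genome build, the tool versions and how shared reads were counted are, in the sources used here, not given. Many rows of the same member held nearly equal counts, so reads shared by such rows were counted for each. Counts summed over rows therefore hold such reads more than once. Directional libraries were made, but the strand setting of the counting is not stated, so reads of an antisense gene could count for a member.

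For each gene, the transcript row with the largest mean count stood for it. Genes were kept by filterByExpr (minimum count 10, minimum total 15), scaled by DEGES (TMM, an exact test, removal at a false discovery rate of 0.1 or at least 5% of genes, 3 rounds), and tested with edgeR 4.0.16 (R 4.3.3) by its quasi-likelihood test, with 4 residual degrees of freedom, no covariate and Benjamini-Hochberg adjustment over all 13864 genes. The common biological coefficient of variation was 3.89%. The spread of each gene was drawn towards that of the other genes tested. P-values and intervals therefore rest on more than the 4 residual degrees of freedom. The test was tried first on simulated counts in which few genes changed. Its behaviour where most genes are called, as here, was not checked. DESeq2 1.42.0 was an alternative. Samples of a group differed by more than sampling noise. The members and gene lists were chosen with earlier results of these data known. All members are named, and of each list up to 5 called genes with the largest change and any past 1, with exceptions said where they stand. Irag1 and Irag2 were matched by their older symbols Mrvi1 and Lrmp. 1 marker gene fixed for the B cell list is not reported here and was left out of its sum. The TGF-β cultures were not analysed here.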

Additional observations from a re-analysis of the deposited data

How the results depend on the processing

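The log2 fold changes of Nfatc1, Ppp3ca, Ppp3cb, Stim1, Orai1 and Itpr1 kept their direction and their call under all 14 alternatives of scaling, test, filter, counting unit, block and left-out library. Nfatc3 lost its call with total counts (-0.071), no filter (-0.0925) and summed rows (-0.0898), and ran from -0.1285 to -0.0798 with each library left out in turn. Rcan1 was called with total counts (0.21), which made 2 members higher, and ran from 0.14 to 0.24 with a library left out (1 to 2 members higher, 5 to 6 lower). Nfatc2 and Itpr2 changed sign without the third bryostatin 1 library, with ranges of -0.091 to 0.0061 and -0.0041 to 0.0574, and were never called. The cause of these moves was not tested. With a log2 fold change past 1 required as well, 0 members were higher and 0 lower, 5 and 2 of the other pathway genes, and 841 and 623 of all genes, by the construction of that rule. The difference in the log2 ratio of Nfatc2 to Nfatc3 ran from -0.0029 to 0.13 over its alternatives, and the other 5 stayed below 0.

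Same-numbered samples of the groups deviated together with correlations of 0.128, 0.04 and 0.049, so the numbers were not taken as a pairing. With the replicate block, 1 member was higher and 6 lower, 31 and 27 other pathway genes, and 4273 and 4020 of all genes. Every sample but the second bryostatin 1 sample (0.043 with the third IL-4 sample) correlated best with its own number.

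Members had 215 to 4230 counts in a library, and Rcan1 and Nfatc2 had the fewest, which widens their intervals.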
